A study of Homo sapiens with 36 samples.

Results

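Platinum-resistant A2780 cis cells under carboplatin were compared in medium without serine and glycine (cis -SG carbo, libraries 22 to 24) and in complete medium (cis carbo, libraries 16 to 18), across all genes. These 6 libraries were chosen by their condition labels out of 36 libraries in 12 conditions of the series, with 3 libraries in each condition. Of 57820 genes in the count table, 14236 had enough counts to be tested between both groups.

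Serine is made from the glycolytic intermediate 3-phosphoglycerate by the enzymes PHGDH, PSAT1 and PSPH in turn, and it supplies glycine, one-carbon units, phospholipids, sphingolipids and, through cysteine, glutathione. When an amino acid runs short, uncharged tRNAs activate the kinase GCN2, translation initiation slows, and the transcription factor ATF4 is translated and activates genes for amino acid transport, amino acid synthesis and tRNA charging. Carboplatin forms platinum adducts on DNA that block replication and activate p53 and the DNA damage checkpoints.

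A2780 is a human ovarian cancer cell line, and the cis cells are an isogenic derivative obtained by long exposure of the parental (wt) cells to cisplatin, so they stand for 1 resistant line. Cells called cis SSP grew out of the cis cells while serine and glycine were withheld. All 3 kinds of cells were sequenced in each combination of medium (complete, or lacking serine and glycine, -SG) and drug (none, or carboplatin, carbo), and both groups compared here carried the same drug. By the study's methods, deprivation experiments used homemade RPMI with dialyzed serum, to which serine and glycine were added or not. The labels give the carboplatin dose as 6 M, whereas other assays of these cells used 6 µM, and the dose of the sequenced cells is not stated otherwise. In the study's legends, such triplicates are named technical replicates, so p-values measure only the spread between these libraries and not between independent cultures.

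Total counts on genes ranged from 13074937 to 17709476 in cis carbo and from 15568737 to 16664649 in cis -SG carbo. Libraries 23 and 24 stood apart before any comparison was made. Reads on no annotated exon made up 17.9% and 14.9% of their counts, compared with 8.53% in library 22 and 7.25% to 8.66% in the 3 cis carbo libraries. Of the genes with at most 3 counts in each cis carbo library, 435 and 365 reached 10 counts in libraries 23 and 24, compared with 197 in library 22 and 193 to 224 in the cis -SG libraries without drug. The comparison was therefore also fitted without both. The median response of the G2 and mitosis genes was -1.54, -1.57 and -1.55 in libraries 22, 23 and 24, while that of the NRF2 and glutathione genes was 0.35, -0.01 and 0.29. Cell type markers were also checked. VIM, at 1520 to 1690 CPM over the 6 libraries, was present. The list of 14 ovarian epithelial markers also holds CDH2 and VIM, so it is not a purely epithelial set. Of the 14, 5 were tested and all 5 rose, against 35.2% of all genes tested. Their median log2 fold change was 1.49, with CDH2 at 2.81, KRT18 at 1.11 and KRT8 at 1.49. A member that passed the count filter through the deprived group alone had to be high there. With at least 10 counts in every library, 3 members were called higher. The epithelial markers PAX8, MUC16, KRT7, KRT19 and CDH1 were at or below 0.177 CPM in every library. CPM values here are counts scaled to library size after TMM normalization over all 36 libraries. Of 14 markers in the table of blood, endothelial and stromal cells, 3 were tested and 2 were called lower, none of them without libraries 23 and 24 or with DESeq2. The summed level of the 14 was 10.5 to 10.8 CPM against 6.78 to 8.55 CPM, while CD3E and HBB had no count in the 6 libraries and PTPRC had at most 0.0590 CPM.

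**Figure D1:**
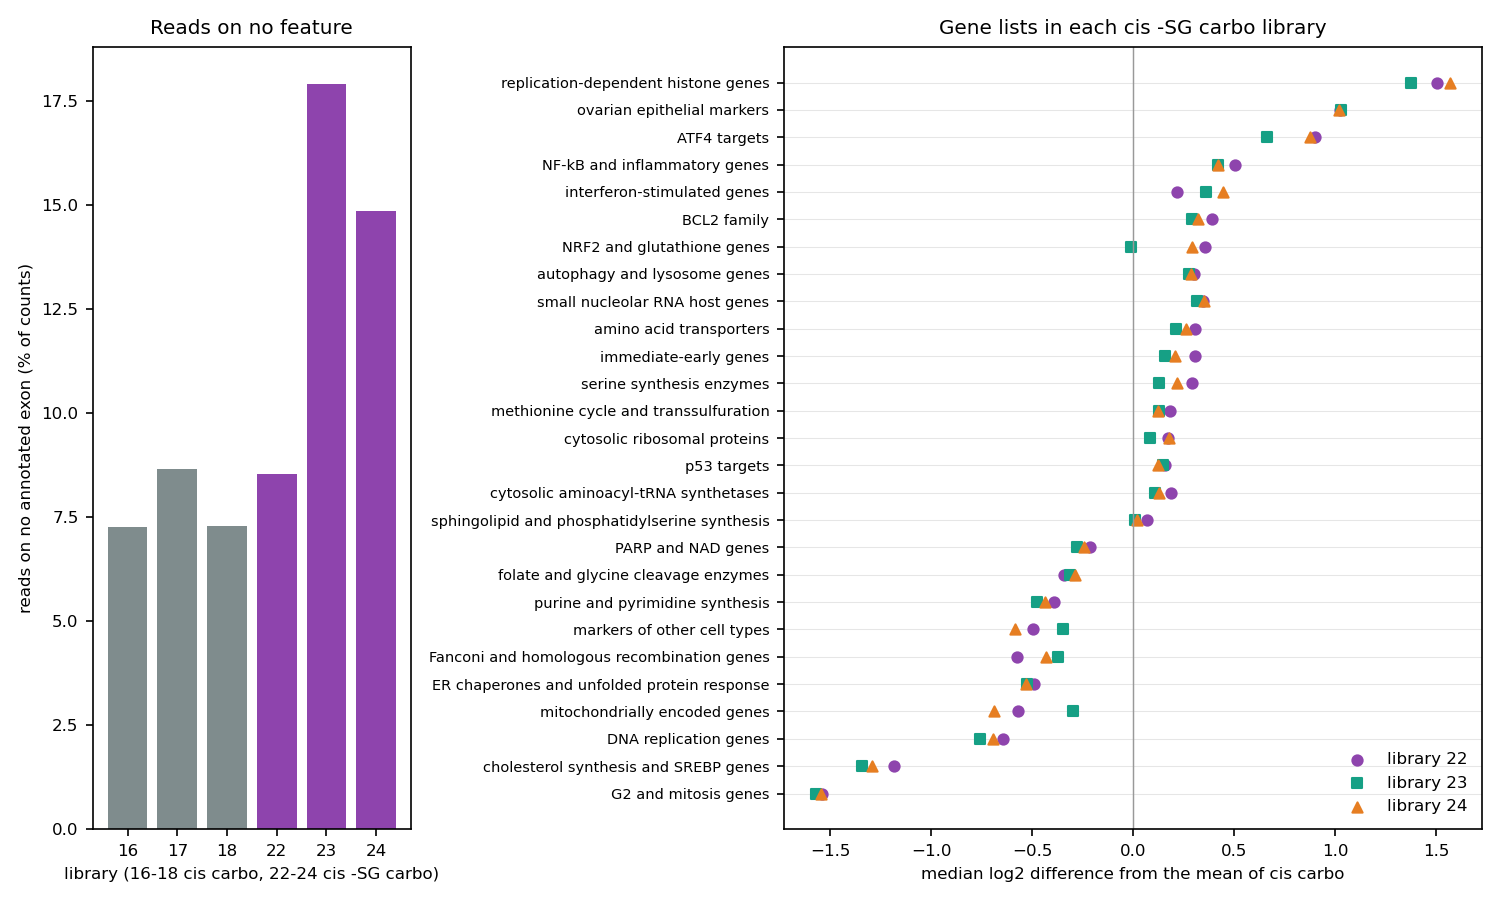
The left panel plots the percentage of counts on no annotated exon in each library, and the right panel plots the median log2 difference of each gene list in libraries 22, 23 and 24 from the mean of the cis carbo libraries. Libraries 23 and 24 have bars of 17.9% and 14.9%, and the G2 and mitosis genes lie at about the same place in all 3 libraries, while the NRF2 and glutathione genes of library 23 lie near 0.

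Deprivation of cis cells under carboplatin changed the level of most genes tested. In the quasi-likelihood test of edgeR, with p-values adjusted by Benjamini-Hochberg, 5004 genes rose and 4988 fell at an adjusted p under 0.05, which is 35.2% and 35% of the genes tested. These shares are the background for each list below. Scaling by total counts instead gave 5770 higher and 4265 lower. The 2 groups did not overlap in 10495 genes, or 73.7%, and the median absolute log2 fold change was 0.40. Large changes were more often increases, since 1697 genes rose and 600 fell by at least 1 on the log2 scale. This split was not taken without libraries 23 and 24. A gene that passed the count filter through 1 group alone had to be high in that group. Genes with at least 10 counts numbered 13145 to 13621 in the cis carbo libraries and 14261, 15079 and 14941 in libraries 22, 23 and 24. Without libraries 23 and 24, library 22 stood alone against cis carbo, and its spread was taken from the cis carbo libraries. Of the 9992 called genes, 9987 were tested there and 9979 had the same direction. That fit shares library 22 and the cis carbo libraries with the main fit, so it is not a separate check.

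**Figure D2:**
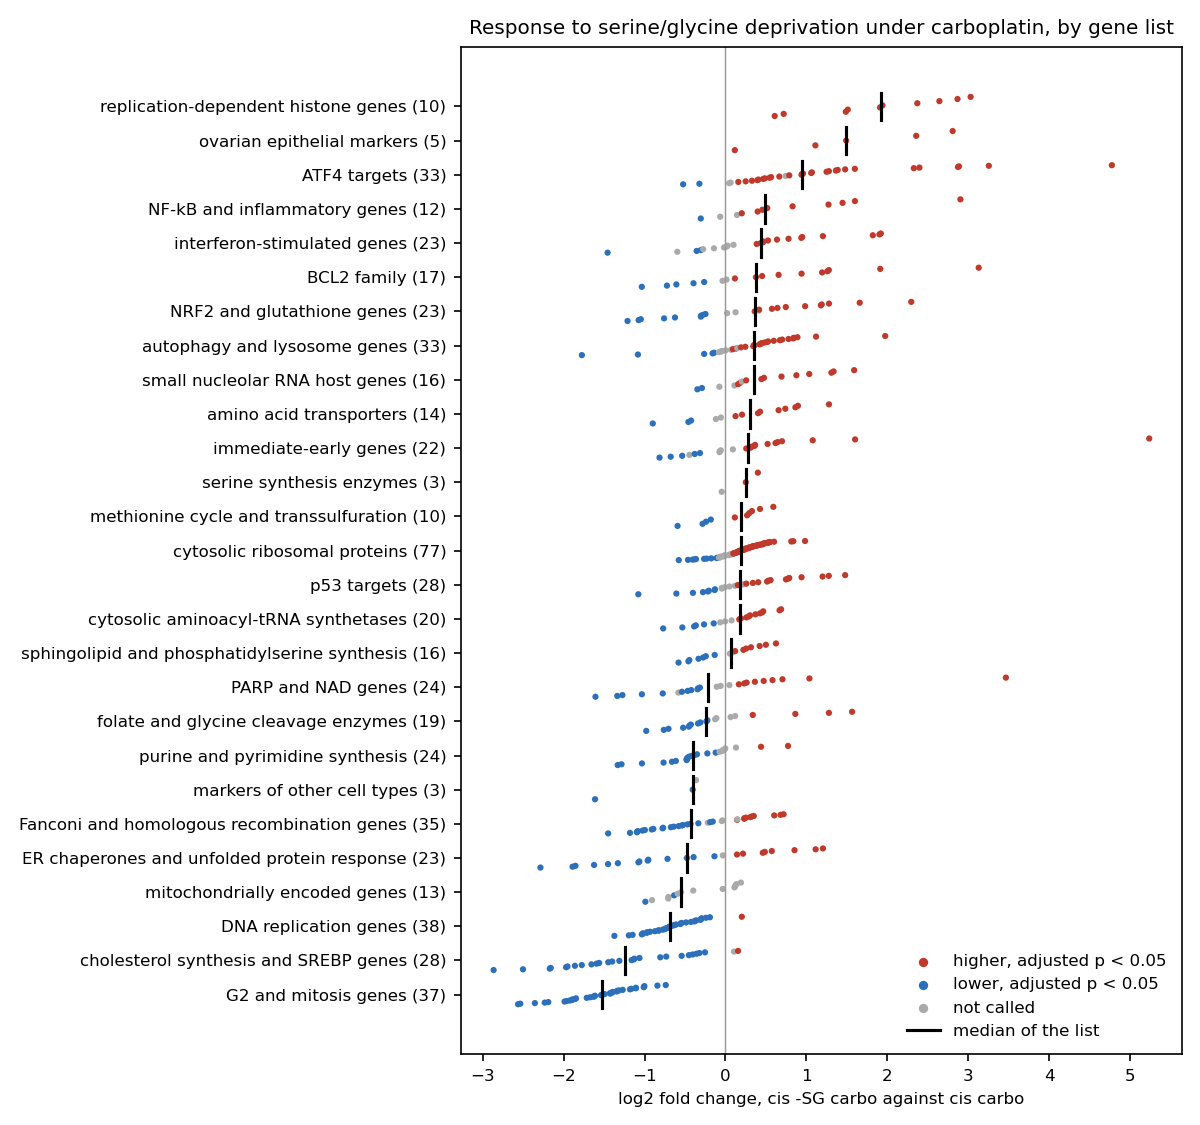
Each point is a tested member of a gene list, with its log2 fold change of cis -SG carbo against cis carbo on the x axis, and the black bar is the list's median. Colours mark genes that rose, fell or were not called, and the number tested is in parentheses. All 37 G2 and mitosis genes lie below 0, and 28 of 33 ATF4 targets are marked as higher.

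Among the serine synthesis enzymes, PHGDH and PSPH rose by small amounts and PSAT1 was not called. PHGDH, the first and committed enzyme (ENSG00000092621, chromosome 1 from 120191034 to 120286841 in GRCh37), was at 131, 124 and 131 CPM in cis carbo and at 171, 161 and 165 CPM in cis -SG carbo. All deprived libraries were above all others, and the log2 fold change was 0.40 with a standard error of 0.0409 and an adjusted p of 5.95e-07. PSPH, the phosphatase that releases serine (ENSG00000146733, chromosome 7 from 56078744 to 56119297), went from 84.5, 81.8 and 82.4 CPM to 101, 90.6 and 96.2 CPM, a log2 fold change of 0.25 (adjusted p = 3.52e-04). For the aminotransferase PSAT1 (ENSG00000135069, chromosome 9 from 80912041 to 80945009) the values were 703, 680 and 704 CPM against 669, 634 and 665 CPM. Its groups did not overlap, yet the log2 fold change of -0.05 (adjusted p = 0.267) did not pass the test, and it was 0.04 with total counts. The mRNA of ATF4 itself rose from 430, 407 and 414 CPM to 504, 457 and 489 CPM, a log2 fold change of 0.25 (adjusted p = 1.08e-04) that was not called in 1 fit over the 36 libraries.

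Of 14 tested amino acid transporters, 9 rose and 3 fell, with a median log2 fold change of 0.30 against 0.01 over all genes tested. SLC7A11, the cystine importer that supplies cysteine for glutathione, was at 76.8, 80.8 and 76.4 CPM in cis carbo and at 172, 192 and 189 CPM in cis -SG carbo. It rose by 1.28 on the log2 scale with a standard error of 0.0460 (adjusted p = 8.16e-12), the largest increase of the list. SLC1A4, which carries serine and other small neutral amino acids, rose from 86.9, 83.3 and 83.2 CPM to 160, 145 and 154 CPM, and the glycine transporter SLC6A9 from 53, 50.3 and 53.9 CPM to 95.6, 91.4 and 92.1 CPM. Their log2 fold changes were 0.90 and 0.86. In the other direction, SFXN1, the carrier that brings serine into mitochondria, fell from 202, 194 and 205 CPM to 105, 106 and 104 CPM, a log2 fold change of -0.90 (adjusted p = 4.0e-11). SLC7A6, an exchanger of cationic and neutral amino acids, and SLC1A1, a glutamate and cysteine transporter, had log2 fold changes of -0.46 and -0.42. The named members of the cell surface thus included both directions, and without libraries 23 and 24 the decrease of SLC1A1 was not called.

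ATF4 targets were mostly higher in cis -SG carbo. Of 33 tested, 28 rose and 2 fell, with a median log2 fold change of 0.94. The largest changes belonged to SLFN5, CLGN and NUPR1. CLGN, a chaperone of the endoplasmic reticulum (ENSG00000153132, chromosome 4 from 141309607 to 141348815), went from 5.85, 5.45 and 7.07 CPM to 58.0, 55.0 and 58.7 CPM, which is 3.26 on the log2 scale with a standard error of 0.0820 (adjusted p = 2.79e-13). NUPR1, a stress-induced nuclear protein, was at 5.96, 5.07 and 6.76 CPM and rose to 47.3, 40.5 and 41.3 CPM, while SLFN5, of the Schlafen family, rose from 0.516, 0.681 and 0.434 CPM to 14.3, 14.2 and 14.8 CPM. In each of these genes the deprived libraries lay close together and far above the others. The 2 members that fell were metabolic enzymes. SHMT2, which splits serine into glycine and a one-carbon unit in mitochondria, went from 328, 301 and 316 CPM to 220, 207 and 214 CPM (log2 fold change -0.52), and ALDH18A1, an enzyme of proline synthesis, from 209, 213 and 215 CPM to 176, 160 and 161 CPM (log2 fold change -0.32).

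The promoters of these genes were searched for TGATGNAA, the core of the amino acid response element that ATF4 binds with C/EBP partners, on both strands. RefSeq promoters (GRCh38.p14, 250 bases before to 50 bases after the start) were matched by symbol for 27 of the 33 tested targets, and 5 of these (18.5%) held the core, compared with 3.67% of 27305 promoters. A match is a description of letters in this window. The 4 called members that held it are shown so that the matches can be read, in windows of 60 bases on the strand of the gene with the core in capitals.
ASNS, chr7:97872443-97872502, minus strand: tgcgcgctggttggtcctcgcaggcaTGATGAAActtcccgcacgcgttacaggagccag
ATF3, chr1:212565190-212565249, plus strand: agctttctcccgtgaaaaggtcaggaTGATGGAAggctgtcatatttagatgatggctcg
CHAC1, chr15:40953236-40953295, plus strand, core on the other strand: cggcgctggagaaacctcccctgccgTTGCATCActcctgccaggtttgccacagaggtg
HERPUD1, chr16:56931940-56931999, plus strand, core on the other strand: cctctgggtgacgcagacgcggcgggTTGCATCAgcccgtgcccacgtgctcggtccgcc
ASNS, asparagine synthetase, was at 232, 216 and 226 CPM in cis carbo and at 297, 282 and 292 CPM in cis -SG carbo, a log2 fold change of 0.41. ATF3, a stress-induced transcription factor, rose more, from 14.4, 13.1 and 15.3 CPM to 73.4, 71.9 and 74.9 CPM (log2 fold change 2.40, adjusted p = 2.87e-13). CHAC1, which degrades glutathione, rose from 43.5, 46.0 and 45.5 CPM to 91.7, 78.3 and 85.1 CPM, and HERPUD1, a protein of endoplasmic reticulum degradation, by 0.49 on the log2 scale. The 4 genes with the core thus covered small and large responses, and FGF21, the fifth, had a log2 fold change of 0.74 that was not called (adjusted p = 0.0867).

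Of 20 cytosolic aminoacyl-tRNA synthetases, which load tRNAs with amino acids, 11 rose and 6 fell, with a median log2 fold change of 0.18. SARS1, which charges serine tRNAs, went from 180, 166 and 182 CPM to 282, 271 and 278 CPM, and its log2 fold change of 0.69 was the highest in the list. EPRS1, for glutamate and proline, and WARS1, for tryptophan, rose by 0.67 and 0.47 on the log2 scale. FARSA, a subunit of the phenylalanine enzyme, fell from 143, 152 and 147 CPM to 85.2, 84.9 and 82.4 CPM (log2 fold change -0.77), and HARS1 and QARS1, for histidine and glutamine, had log2 fold changes of -0.53 and -0.39.

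Folate and glycine cleavage enzymes went mostly the other way, with 4 of 19 tested genes higher and 11 lower and a median log2 fold change of -0.24. The mitochondrial formyltetrahydrofolate dehydrogenase ALDH1L2 rose from 128, 128 and 122 CPM to 296, 299 and 296 CPM, which is 1.28 on the log2 scale with a standard error of 0.0373 (adjusted p = 9.71e-13). The cytosolic SHMT1 fell from 48.9, 43.8 and 42.3 CPM to 25.5, 25.7 and 26.4 CPM, GGH, which trims folate polyglutamates, from 69.2, 65.3 and 72.3 CPM to 34.5, 34.1 and 33.7 CPM, and the folate carrier SLC19A1 from 76.7, 92.4 and 85.5 CPM to 55.6, 46.7 and 49.3 CPM. AMT, a subunit of the glycine cleavage system, had 2.75, 3.63 and 2.11 CPM against 5.56, 10.3 and 8.39 CPM (log2 fold change 1.57), with library 22 the lowest of the deprived libraries. Among 10 methionine cycle and transsulfuration genes, 6 rose and 4 fell. MAT2A, which makes S-adenosylmethionine, rose by 0.43, and AHCY, which hydrolyses S-adenosylhomocysteine, had a log2 fold change of -0.59. Of 24 purine and pyrimidine synthesis genes, 2 rose and 16 fell, with a median of -0.40. The ribonucleotide reductase subunits differed in direction. RRM1 fell from 234, 229 and 231 CPM to 90.1, 89.6 and 88.9 CPM and RRM2 from 303, 294 and 292 CPM to 120, 116 and 119 CPM, whereas RRM2B, the subunit induced by p53, rose from 177, 171 and 178 CPM to 296, 290 and 289 CPM (log2 fold change 0.77, adjusted p = 1.32e-10).

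The 37 G2 and mitosis genes all fell, with a median log2 fold change of -1.52 and a range from -2.56 to -0.74. Their summed level went from between 6096 and 6235 CPM to between 2178 and 2192 CPM. KIF20A, a kinesin of cytokinesis (ENSG00000112984, chromosome 5 from 137514408 to 137523412), was at 117, 113 and 115 CPM in cis carbo and at 19.7, 17.8 and 19.3 CPM in cis -SG carbo, a difference of -2.56 on the log2 scale with a standard error of 0.0527 (adjusted p = 6.71e-14). DLGAP5, a spindle protein, fell from 116, 120 and 120 CPM to 20.9, 18.6 and 20.4 CPM. PLK1, the kinase that drives mitotic entry (ENSG00000166851, chromosome 16 from 23688977 to 23701688), fell from 179, 178 and 191 CPM to 36.4, 33.6 and 34 CPM. The groups were separated by several times the spread between libraries, and library 22 lay with libraries 23 and 24. In these bulk samples, fewer cells in a phase and less RNA per cell cannot be told apart.

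Many genes of this phase carry the cell cycle genes homology region near their start, read by the DREAM and MuvB complexes, and the letters TTTGAA were searched on both strands. Of 31 promoters matched by symbol, 20 (64.5%) held them, compared with 15.4% of all 27305 promoters. Examples near the start are shown for the members that fell, with the match in capitals.
PLK1, chr16:23678833-23678892, plus strand: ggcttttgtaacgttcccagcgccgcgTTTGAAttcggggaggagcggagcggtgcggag
CCNB2, chr15:59105090-59105149, plus strand: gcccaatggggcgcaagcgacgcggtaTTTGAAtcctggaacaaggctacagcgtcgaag
KIF4A, chrX:70290043-70290102, plus strand: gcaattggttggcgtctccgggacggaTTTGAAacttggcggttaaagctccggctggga
CENPA, chr2:26786011-26786070, plus strand: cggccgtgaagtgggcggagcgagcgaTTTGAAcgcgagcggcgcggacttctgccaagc
DLGAP5, chr14:55191550-55191609, minus strand: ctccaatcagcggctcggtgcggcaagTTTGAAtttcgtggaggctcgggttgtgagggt
The log2 fold changes of these members were -2.36 for PLK1, -1.71 for cyclin B2 (CCNB2), -1.43 for the chromokinesin KIF4A, -1.89 for the centromeric histone CENPA and -2.54 for DLGAP5.

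Of 38 DNA replication genes, 37 fell and 1 rose, with a median of -0.68. GINS1, of the replicative helicase, fell from 68.7, 69.7 and 72.5 CPM to 26.1, 26.7 and 26.6 CPM (log2 fold change -1.37), and CDC45 and the origin licensing factor CDC6 had log2 fold changes of -1.19 and -1.15. The exception was MCM5, another subunit of that helicase, at 134, 131 and 138 CPM against 158, 142 and 150 CPM (log2 fold change 0.20, adjusted p = 0.00124). Fanconi and homologous recombination genes were divided, with 10 higher and 21 lower of 35 and a median of -0.43. FANCM fell from 31, 33.7 and 29.8 CPM to 10.3, 11.1 and 12.2 CPM, and RAD54L and FANCD2 had log2 fold changes of -1.18 and -1.09. The damage kinases ATM and ATR had log2 fold changes of 0.72 and 0.68. ATM, at 148, 188 and 163 CPM against 222, 298 and 279 CPM, was higher in libraries 17, 23 and 24 than in the others of its group. Without libraries 23 and 24 its log2 fold change was 0.48 and was not called.

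p53 targets did not move as 1 group. Of 28 tested, 14 rose and 8 fell, with a median log2 fold change of 0.19. SESN2, a sestrin that is also an ATF4 target, rose from 79.3, 80.5 and 76.9 CPM to 217, 213 and 212 CPM (log2 fold change 1.48), BBC3, the proapoptotic protein PUMA, from 26.8, 30.9 and 28.8 CPM to 75.2, 61.0 and 67.3 CPM, and ZMAT3, an RNA-binding protein, from 87.9, 97.2 and 88.1 CPM to 200.4, 203 and 208 CPM. DDB2, a sensor of nucleotide excision repair, fell from 113, 111 and 114 CPM to 49.4, 54.1 and 52.8 CPM (log2 fold change -1.08, adjusted p = 2.39e-11), and BAX, the mitochondrial pore protein, from 164, 165 and 166 CPM to 110.5, 100.5 and 105 CPM. The cyclin-dependent kinase inhibitor CDKN1A was at 319, 324 and 321 CPM against 332, 291 and 310 CPM, and its log2 fold change of -0.01 (adjusted p = 0.891) did not pass the test. In the BCL2 family, 10 of 17 genes rose and 5 fell. HRK and BCL2L11, both BH3-only activators of cell death, rose by 3.13 and 1.26 on the log2 scale, while BAD, another BH3-only member, fell from 11.5, 13.3 and 12 CPM to 6.5, 4.13 and 6.72 CPM.

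Cholesterol synthesis and SREBP genes fell together, 26 of 28 lower and 1 higher, with a median log2 fold change of -1.24. ACAT2, which makes acetoacetyl-CoA at the entry of the pathway (ENSG00000120437, chromosome 6 from 160183077 to 160200144), was at 60.8, 62.9 and 62.3 CPM in cis carbo and at 7.89, 7.67 and 9.22 CPM in cis -SG carbo. The difference was -2.87 on the log2 scale with a standard error of 0.0706 (adjusted p = 2.28e-13). HSD17B7 and EBP, enzymes of the later sterol steps, had log2 fold changes of -2.50 and -2.17. STARD4, a sterol carrier, was the exception, at 281, 270 and 278 CPM against 302, 295 and 304 CPM (log2 fold change 0.16, adjusted p = 0.00111), and was not called in 1 fit over the 36 libraries. The sterol regulatory element TCACNCCAC was found on either strand in 1 of 21 promoters of these genes, that of SREBF2, compared with 1.15% of all promoters. Of 16 genes for sphingolipids and phosphatidylserine, lipids that take serine as a substrate, 7 rose and 7 fell. KDSR rose by 0.63, and PTDSS1, phosphatidylserine synthase 1, fell from 289, 281 and 287 CPM to 189, 184 and 186 CPM.

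PARP and NAD genes included 9 that rose and 11 that fell of 24. PARP1 fell, with a log2 fold change of -0.775, while PARP2 and PARP3 rose by 0.232 and 0.705. NAMPT was not called (log2 fold change -0.107, adjusted p = 0.116). NMNAT2, a cytosolic enzyme of the last step of NAD synthesis (ENSG00000157064, chromosome 1 from 183217372 to 183387515), was at 6.08, 5.37 and 5.46 CPM and rose to 61.9, 60.6 and 60.4 CPM, which is 3.47 on the log2 scale with a standard error of 0.0716 (adjusted p = 6.71e-14). Its nuclear relative NMNAT1 rose by 1.04. The list's decreases included the NAD synthesis gene NAPRT (log2 fold change -1.03) as well as enzymes of central metabolism. Lactate dehydrogenase LDHA went from between 1263 and 1339 CPM to between 512 and 534 CPM (log2 fold change -1.27), and mitochondrial IDH2 from 44, 49.0 and 43.5 CPM to 17, 17.8 and 17.8 CPM. NRF2 and glutathione genes had 11 higher and 9 lower of 23. HMOX1, heme oxygenase, rose from 74.2, 78.0 and 75.1 CPM to 388, 345 and 353 CPM (log2 fold change 2.30, standard error 0.0538), while the pentose phosphate enzymes TKT and PGD of the same list had log2 fold changes of -1.21 and -1.05. PGD was at 335, 328 and 337 CPM and fell to 160, 154 and 158 CPM.

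Genes of the endoplasmic reticulum were divided, with 8 higher and 14 lower of 23. The sensors ATF6 and ERN1 and the factor XBP1 rose by 1.21, 1.12 and 0.85 on the log2 scale. ATF6 was at 132, 127 and 131 CPM against 301, 284 and 293 CPM. SDF2L1, MANF and DERL3, which serve folding and disposal of proteins in this compartment, fell, SDF2L1 from 75.5, 87.0 and 78.2 CPM to 17.1, 14 and 16.7 CPM (log2 fold change -2.29). Of 33 autophagy and lysosome genes, 22 rose and 5 fell, with a median of 0.36. The autophagosome protein GABARAPL1 rose from 5.33, 5.29 and 4.96 CPM to 20.1, 18.7 and 20.9 CPM, and the receptor SQSTM1 by 1.12. TFEB, a transcription factor of lysosomal genes, fell from 5.79, 5.52 and 6.45 CPM to 1.67, 1.95 and 1.44 CPM.

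Of 22 immediate-early genes, 12 rose and 5 fell. KLF4 went from 0.287, 0.832 and 0.186 CPM to 16.2, 14.3 and 15.2 CPM (log2 fold change 5.24) and JUN rose by 1.60, whereas EGR1, at 373, 391 and 380 CPM against 225, 205 and 202 CPM, and FOS had log2 fold changes of -0.82 and -0.68. Among NF-kB and inflammatory genes, 9 of 12 rose and 1 fell, the cytokine LIF rising from 35.5, 30.2 and 35.9 CPM to 58.1, 62.6 and 55.9 CPM. Of 23 interferon-stimulated genes, 13 rose and 3 fell. The RNA sensor DDX60 went from 2.18, 2.50 and 2.92 CPM to 8.89, 10.4 and 8.67 CPM, and IFI6 fell from 12, 11.2 and 12.1 CPM to 3.89, 3.60 and 5.00 CPM.

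Of 77 cytosolic ribosomal proteins, 51 rose and 10 fell, with a median of 0.19, but 1 fit over the 36 libraries called 11 higher and 1 lower. The largest increases were in RPL22, RPS12 and RPS18, with log2 fold changes of 0.98, 0.84 and 0.81. Of 16 small nucleolar RNA host genes, 11 rose and 2 fell, with 6 higher in the fit over the 36 libraries. GAS5, one of these hosts, was at 351, 345 and 345 CPM and rose to 876, 852 and 832 CPM (log2 fold change 1.34). All 10 tested replication-dependent histone genes rose, with a median of 1.93 and a summed list level of 43.6 to 49.1 CPM against 134 to 148 CPM. H2AC6 was at 3.10, 2.72 and 4.03 CPM and rose to 26.1, 25.4 and 27.6 CPM. The list names 57 histone genes, of which 23 were matched in the table and 10 passed the filter on low counts, so the count speaks for these 10 alone, and a gene that passed through the group where it was high had to be high there. Histone genes, ribosomal proteins and FTH1 have near-identical copies in the genome and are uncertain for that reason. Mitochondrially encoded genes had 0 higher and 2 lower of 13. MT-ATP8, at 413, 209 and 334 CPM against 145, 180 and 145 CPM, varied more than 1.5-fold within cis carbo. Leaving out libraries 23 and 24, or any single library other than 17, ended both calls, while the log2 fold change of MT-ATP8 stayed between -1.24 and -0.79. Without library 17, 8 members were called lower, and 6 were with DESeq2.

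**Figure D3:**
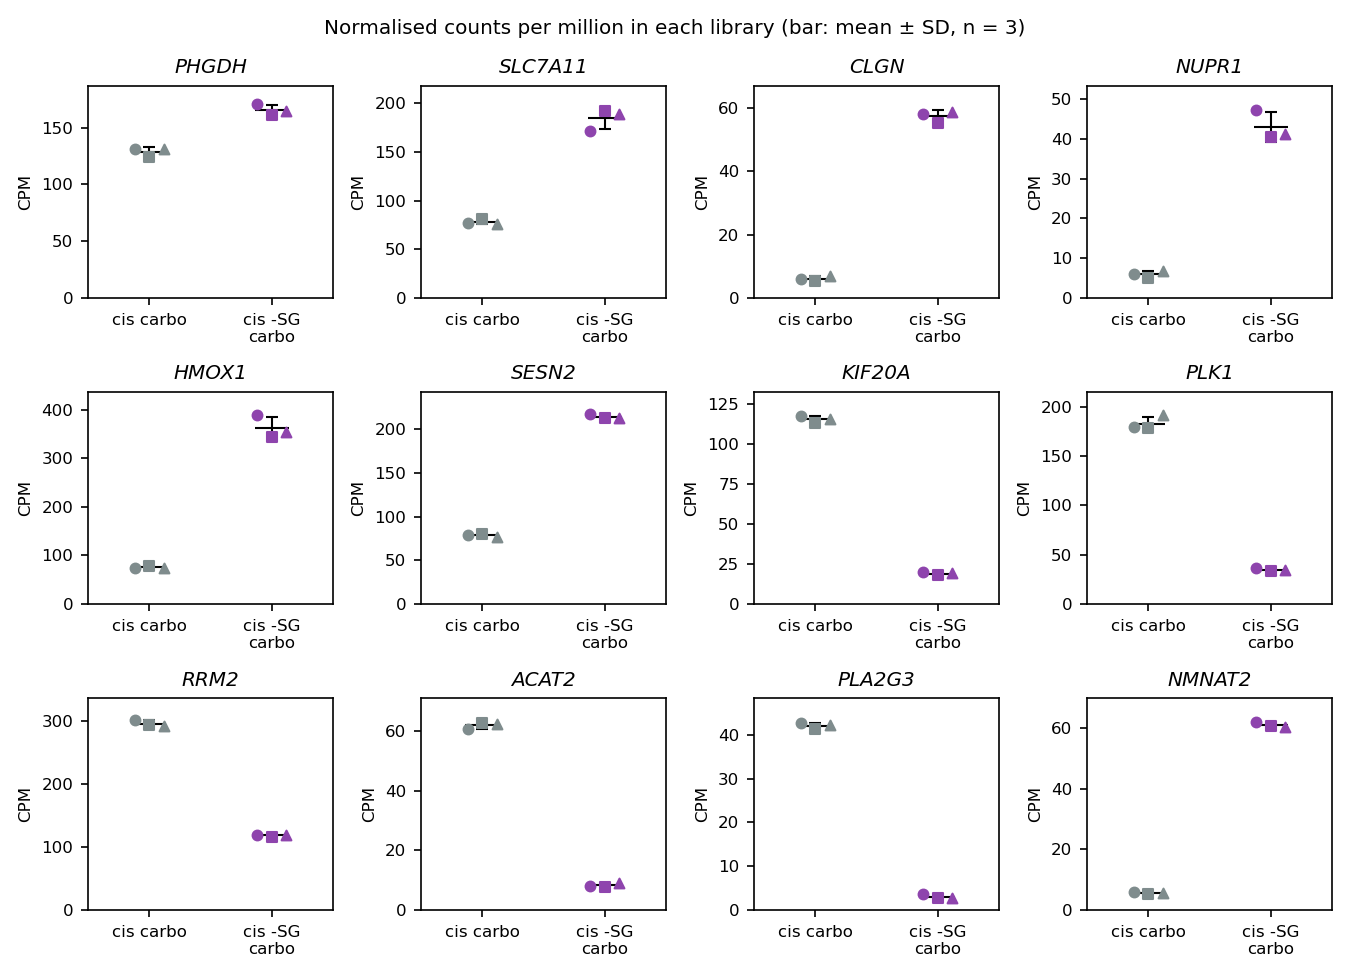
CPM of 12 genes in the 3 cis carbo libraries (grey) and the 3 cis -SG carbo libraries (purple), each on its own linear axis from 0, with the mean ± SD and circles, squares and triangles for the libraries of a group in the order of their numbers. PHGDH, for example, was at 124 to 131 CPM against 161 to 171 CPM. All genes shown but PHGDH were named by a rule that required groups without overlap, so their separation was set by the choice. Of all genes tested, 73.7% had groups without overlap.

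Of all genes, those with the largest increases that met the minimum of 50 mean counts were lowly expressed in cis carbo. RPS6KA2, a ribosomal S6 kinase, had at most 3 counts in each cis carbo library and 6.39, 6.25 and 6.33 CPM in cis -SG carbo, at least 32.5-fold higher against a floor of 3 counts per library. EPAS1, the hypoxia-inducible factor HIF-2 alpha, rose from 0.860, 0.907 and 0.310 CPM to 13.2, 12.9 and 13.3 CPM (log2 fold change 4.29), and the growth factor receptor IGF1R from 1.72, 1.51 and 1.99 CPM to 26.2, 28 and 26.2 CPM (log2 fold change 3.97). IGFN1 showed the widest spread, at 0.802, 1.06 and 0.930 CPM against 9.23 CPM in library 22 and 28.1 and 22.1 CPM in libraries 23 and 24. The remaining named increases, in PPP1R9A, ALPK1, PCGF5 and BARX2, had log2 fold changes between 3.89 and 4.37. The cadherin CDH2 rose from 10.2, 9.68 and 10.5 CPM to 73.2, 66.0 and 68.8 CPM. Among decreases, the secreted phospholipase PLA2G3 (ENSG00000100078, chromosome 22 from 31530793 to 31536494) fell from 42.6, 41.2 and 42.3 CPM to 3.67, 2.83 and 2.67 CPM (log2 fold change -3.74 with a standard error of 0.0976, adjusted p = 3.78e-13). STAC2, MEOX1, CDCA3, RAB3D and ARHGEF39 followed, with log2 fold changes between -2.99 and -2.40.

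The second question was whether carboplatin altered the response of cis cells to deprivation. The comparison of cis -SG with cis cells without drug used 6 other libraries, tested 14122 genes and called 5309 higher (37.6%) and 5281 lower (37.4%). Over 13884 genes tested in both, the responses had a Pearson correlation of 0.923, given as a description across genes, which are not independent. Of 8663 genes called in both, 8541 had the same direction and 122 the opposite one, and the 8663 were 86.7% of the calls with drug and 81.8% of those without. An interaction test over the 12 libraries called 874 genes (5.91%) with a more positive response under carboplatin and 913 (6.17%) with a more negative one. Among 1776 of these tested in both comparisons, the response under carboplatin had the same sign and was larger in 634 and smaller in 704, and the signs differed in 438. These numbers depended on the setting more than the others did. A single estimate of the spread over all 36 libraries left 33 and 79 genes, the fit without library 22 called 1084 and 2510, and total counts without TMM gave 1131 and 679. The fit over the 36 libraries also took its spread from library 25 (cis SSP) and library 32 (cis SSP -SG). Both stood apart from the others of their groups, and their part in these numbers was not tested.

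The lists differed in their share of such genes. In the ATF4 targets, 15 of 34 had a lower response under carboplatin and 2 a higher one, with a median interaction of -0.20, where the median of all genes was 0.0053. ATF3 and DDIT4 had interactions of -0.71 and -0.72, although both rose in both comparisons. In the G2 and mitosis genes, 25 of 37 had a more negative response under carboplatin and 0 a more positive one, with a median of -0.28. Fold changes of PLK1 were -2.36 with drug and -1.88 without (interaction -0.45, adjusted p = 8.46e-06). Of 28 p53 targets, 13 had a more negative response and 0 a more positive one. CDKN1A rose by 0.77 on the log2 scale without carboplatin, compared with -0.01 under it (interaction -0.75, adjusted p = 1.93e-10). BAX had a log2 fold change of -0.61 under carboplatin and -0.15 without it (interaction adjusted p = 3.23e-06), and its mean was 120.5 ± 4.13 CPM (SD, n = 3) in cis cells, 165 ± 0.728 CPM in cis carbo, 104 ± 2.58 CPM in cis -SG and 105 ± 5.01 CPM in cis -SG carbo. The 2 deprived groups thus had close means, and the groups in complete medium were further apart. In the fit over the 36 libraries the counts of lower responses were 6 ATF4 targets, 6 G2 and mitosis genes and 5 p53 targets. Cholesterol genes had 2 higher and 1 lower interaction of 28.

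**Figure D4:**
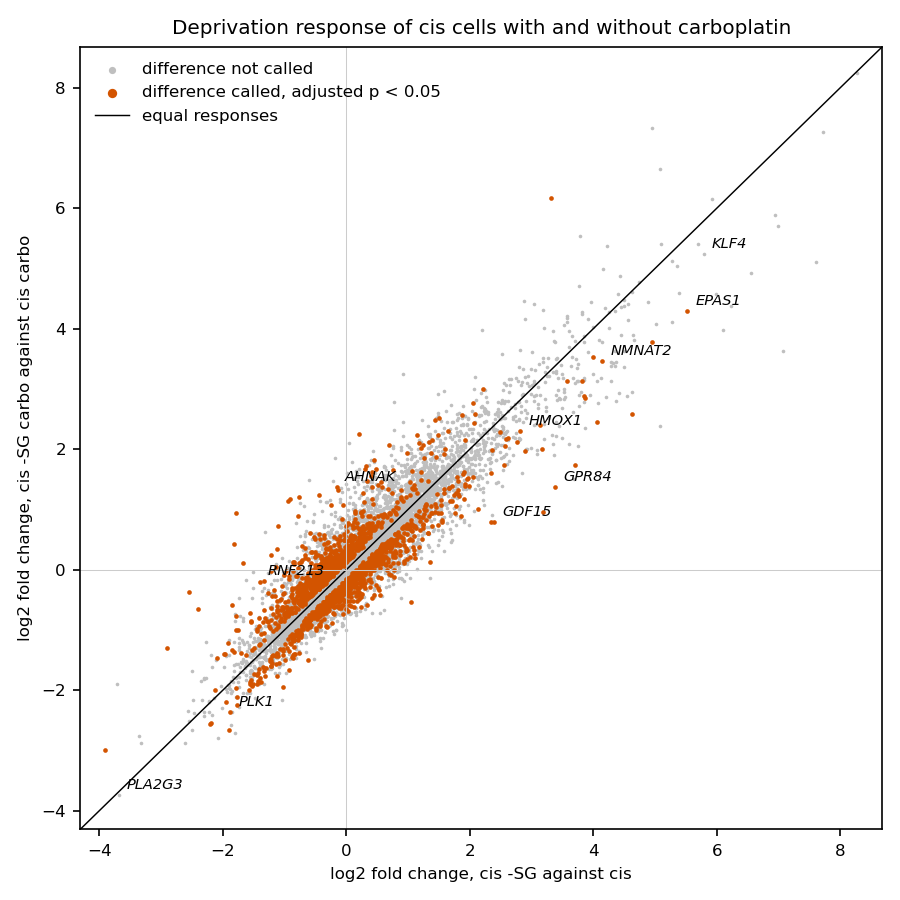
Each point is a gene tested in both comparisons of cis cells, with the log2 fold change of -SG against complete medium without carboplatin on the x axis and with carboplatin on the y axis. Orange points are genes whose responses differed by the interaction test, and the line marks equal responses. Most points follow the line, and GDF15 and GPR84 lie below it.

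Single genes differed strongly. The stress cytokine GDF15 rose from 191, 213 and 199.5 CPM to 394, 282 and 338 CPM under carboplatin, a log2 fold change of 0.79, compared with 2.39 without drug, where it went from 45.7 ± 3.41 CPM (SD, n = 3) to 228 ± 3.47 CPM. EPAS1 rose by 4.29 with drug and by 5.52 without. HMOX1 rose by 2.30 and 2.81, an interaction of -0.49 (adjusted p = 1.94e-06), and NMNAT2 by 3.47 and 4.15. AHNAK, a giant scaffold protein, was at 133, 186 and 145 CPM in cis carbo and at 312, 443 and 411 CPM in cis -SG carbo, a log2 fold change of 1.37 compared with -0.15 without drug. AHNAK was higher in libraries 17, 23 and 24 than in the others of its group, and without libraries 23 and 24 its log2 fold change was 1.075 and was not called.

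The same comparison gave fewer calls in the other cells. In wt cells under carboplatin, 90 of 14454 genes rose (0.623%) and 14 fell (0.0969%), with 1955 at an unadjusted p under 0.05. Library 11 of wt -SG carbo stood apart, with 6.20% of counts on mitochondrially encoded genes against 3.56% and 3.53% in the other libraries of its group. Without it, 914 of 14715 genes were called higher and 669 lower, so the number of calls in wt cells depended on this library. The number without library 11 stayed below the 9992 calls in cis cells. Leaving out any other wt library gave at most 57 calls. In cis SSP cells 678 of 13747 rose (4.93%) and 664 fell (4.83%). The difference itself was tested. Compared with wt cells, 3661 genes had a more positive response in cis cells (23.4%) and 4318 a more negative one (27.6%), and without library 11 the numbers were 3807 and 4765. Compared with cis SSP cells the numbers were 3826 (25.9%) and 4487 (30.4%). With total counts in place of TMM these splits were 4535 and 3460, and 4884 and 3430. Both tests share the 6 libraries of the main comparison.

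**Figure D5:**
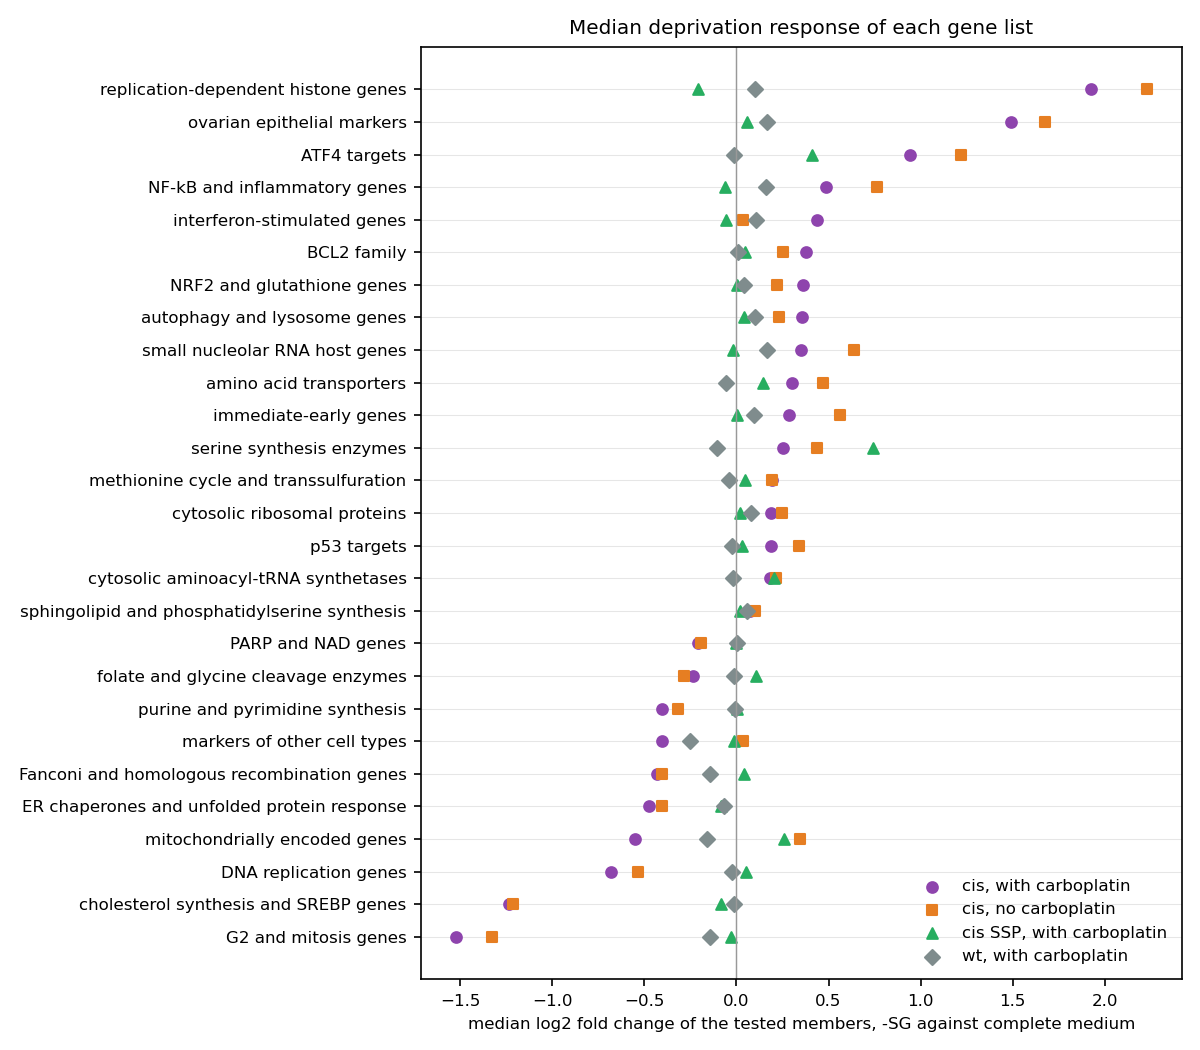
Median log2 fold change of -SG against complete medium over the tested members of each gene list, in cis cells with and without carboplatin and in cis SSP and wt cells with carboplatin. The medians of wt and cis SSP cells lie mostly near 0, apart from the serine synthesis enzymes and ATF4 targets of cis SSP cells, at 0.74 and 0.41.

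The log2 fold changes of PHGDH and PSAT1 were higher in cis SSP cells than in cis cells, where PSAT1 was not called. PHGDH rose by 0.79 in cis SSP cells under carboplatin, from 186 ± 2.64 CPM (SD, n = 3) to 319 ± 3.52 CPM, PSAT1 by 0.74 and PSPH by 0.38, and the interactions of PHGDH, PSAT1 and PSPH, cis minus cis SSP, were -0.40, -0.80 and -0.14 (adjusted p = 2.38e-08, 1.52e-14 and 0.0413). In all but 1 of 13 alternatives 2 of these 3 calls were left. In wt cells PHGDH was at 177 ± 4.18 CPM and 164 ± 10.4 CPM, with a log2 fold change of -0.12 that was not called, and without library 11, 2 of the 3 enzymes were called lower. ATF4 targets had 23 higher and 1 lower of 31 in cis SSP cells and 1 higher of 30 in wt cells, or 6 higher and 5 lower without library 11. For the G2 and mitosis genes, 36 of 37 differed from wt cells and 37 from cis SSP cells, all with a more negative response in cis cells, and without library 11 all 37 differed from wt cells. Levels in complete medium differed between the cells. KIF20A was at 12.4 ± 0.823 CPM (SD, n = 3) in wt carbo and 9.30 ± 1.05 CPM in wt -SG carbo, compared with 18.9 ± 1.01 CPM in cis -SG carbo, whereas in cis SSP cells it was at 114 ± 2.39 CPM and 106 ± 2.55 CPM. NMNAT2 was at 33.8 ± 1.81 CPM and 38.3 ± 3.82 CPM in wt cells and below 1 CPM in cis SSP cells under carboplatin. PLA2G3 was at 4.86 ± 0.265 CPM in wt carbo and 18.8 ± 0.527 CPM in cis SSP carbo, compared with 42.1 ± 0.745 CPM in cis carbo.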

How the data were processed

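The authors deposited raw counts per gene for 36 libraries. By the paper's methods and the submitters' processing notes, reads of 65 bases were aligned with STAR to GRCh37.p13 and counted on exons of GENCODE v19 with HTSeq, and the strand setting is not given in the sources used here, so overlapping and antisense genes are less certain. The 3 rows that name no gene stayed out of library sizes and tests. Their largest, reads on no feature, is given above per library. Samples were grouped by their labels. Symbols and positions came from GENCODE v44 mapped to GRCh37, for 55538 of 57820 identifiers.

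Counts were fitted with edgeR 4.0.16 (R 4.3.3, TMM, filterByExpr, robust quasi-likelihood F test), on the libraries of each comparison alone. Interaction terms tested differences between responses. A gene was called at a Benjamini-Hochberg adjusted p under 0.05 over all genes tested, and the standard error is the absolute log2 fold change over the square root of F. No 2 libraries of the 6 agreed within sampling noise (mean chi-square per gene 2.73 to 10.3 in pairs of a group). By the same measure, library 25 of cis SSP (118 and 103.2) and library 32 of cis SSP -SG (122.8 and 109.8) stood apart from their groups. Both entered the fit over all 36 libraries and no other fit, and their part in its numbers of calls was not tested. Alternatives were DESeq2 1.42.0 (the paper's tool), its size factors, total counts, other filters, 1 fit over 36 libraries, voom with quality weights, a log2 threshold of 1, protein-coding genes alone, removal of the length trend and libraries left out.

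Genes were named by a rule: the serine synthesis enzymes and ATF4, then at most 3 called members of each of 27 lists in each direction with the largest change among those with at least 50 mean counts and groups that do not overlap (where fewer than 3 members passed, the lowest adjusted p), then at most 10 genes in each direction over all genes, then at most 3 per direction for each interaction. CDKN1A, ATF3, DDIT4, ASNS, CHAC1, HERPUD1, FGF21, CCNB2, KIF4A, CENPA, SREBF2, PARP1, PARP2, NAMPT and the markers were named after their values were seen. The lists, the rule and the comparison were chosen with earlier results of these data known. Interaction genes with at most 3 counts in every library of a cis group have no fold here. Total counts of 13074937 to 20441582 per library set the counting error. Some genes that the rule names are not reported here.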

Additional observations from a re-analysis of the deposited data

Results flagged for a closer look

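Responses that differed by an interaction test were followed up as values. In 1787 genes the response of cis cells to deprivation differed with and without carboplatin, in 7979 the response under carboplatin differed between cis and wt cells, and in 8313 it differed between cis and cis SSP cells. A positive interaction means a more positive response of cis cells under carboplatin.

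Between cis cells with and without drug, the interaction was 1.55 for AHNAK (adjusted p = 0.00425), 1.28 for FGD6, an exchange factor of small GTPases (adjusted p = 5.31e-04), and 1.24 for the ubiquitin ligase RNF213 (adjusted p = 0.0156). FGD6 fell in both comparisons, by 0.59 with and by 1.85 without drug on the log2 scale, and its decrease under carboplatin was not called without libraries 23 and 24 (log2 fold change -0.46), without library 17 (-0.48) or in 1 fit over the 36 libraries (-0.63). RNF213, at 198, 286 and 211 CPM against 157, 226 and 208 CPM, had no called response under carboplatin (log2 fold change -0.19, adjusted p = 0.470). The interaction was -1.97 for the receptor GPR84, which rose from 3.32, 3.63 and 3.04 CPM to 8.78, 8.61 and 7.72 CPM, -1.57 for GDF15 and -1.21 for EPAS1 (adjusted p = 0.0451). AHNAK and RNF213 were highest in library 17 of cis carbo and in library 23 of cis -SG carbo, which had the highest share of reads on no feature within their groups, at 8.66% and 17.9%, and the part of this in the difference was not tested.

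Between cis and wt cells, SLFN5 had an interaction of 5.59, PLA2G3 of -3.64 and GALNT18, a glycosyltransferase, of -3.44. SLFN5 was at 0.439 ± 0.0907 CPM (SD, n = 3) in wt carbo and at 0.250 ± 0.221 CPM in wt -SG carbo, and GALNT18 at 0.0203 ± 0.0352 CPM and 0.176 ± 0.0314 CPM, so the wt side of both rests on very few counts. Between cis and cis SSP cells, PLA2G3 had an interaction of -3.59, the ATP-gated channel P2RX5 of -2.83 and STAC2 of -2.74. P2RX5 was below 0.2 CPM on average in every cis SSP condition, while STAC2 was at 8.76 ± 0.503 CPM in cis SSP carbo and 7.21 ± 0.633 CPM in cis SSP -SG carbo. These differences were chosen as the largest among genes past the threshold.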

How the results depend on the processing

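The number of genes called between cis -SG carbo and cis carbo, 9992, was 8737 to 10998 under the other settings without a fold threshold, 9224 to 10808 with each library left out, and 2297 when a change of 1 or more on the log2 scale was also required. The interaction with carboplatin fell from 1787 genes to 112 in 1 fit over the 36 libraries. With each cis carbo or cis -SG carbo library, but no drug-free library, left out in turn, it was 1334 to 3594, the highest without library 22. Its split of calls moved from 48.9% higher to 62.5% with total counts, which shifted the median log2 fold change of all genes from 0.01 to 0.10 in the main comparison, and to 0.12 in both interactions between cells. The 104 calls in wt cells became 1583 without library 11 and 0 to 57 without any other wt library (0 without library 6, by edgeR, with 1143 at an unadjusted p under 0.05), alternatives added after seeing the data. With each cis library left out, the interaction with wt cells gave 7363 to 8308 genes and that with cis SSP cells 7792 to 8906, and the latter fell from 8313 to 5354 in 1 fit over the 36 libraries. Without libraries 23 and 24, an alternative added after seeing the data for the interactions, the 3 interactions gave 1340, 6270 and 7435 genes. There, library 22 alone stood for its group and was assumed to vary like the other libraries. Of 2449 log2 fold changes of 154 named genes under the alternatives, 42 lost and 6 gained the call and 2401 kept their side of the threshold. The sign changed in 1 value, that of PSAT1 with total counts, which was not called in either fit. No paired analysis was possible because the labels give no replicate numbers within a condition. Depth limits genes with few counts, such as most epithelial markers and histone genes.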
